A study of Mus musculus with 9 samples.

Results

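The genes that lead from the IL-12 receptor to interferon gamma were examined in T-cells that had been isolated from bone marrow, in mice with and without B-ALL. The set was defined as the genes Il12rb1, Il12rb2, Stat4, Tbx21, Ifng, Ifngr1 and Ifngr2, and 4 of these 7, Il12rb1, Stat4, Tbx21 and Ifng, were matched to a probe among the 785 probes of the panel. Il12rb2, Ifngr1 and Ifngr2 were matched to none and are not analysed here. All 9 mice were female wild-type C57BL/6 mice, 6 to 8 weeks old, and T-cells were taken at day 7 with a pan-T-cell isolation kit. There were 3 mice without leukemia and without treatment, 3 vehicle treated mice with leukemia and 3 rIL-12 treated mice with leukemia. Both groups with leukemia had received 200000 B-ALL cells by tail vein without irradiation, from a BCR-ABL1+ Arf-/- line that expressed luciferase and had been transduced with GFP. Recombinant murine IL-12p70 (rIL-12) was injected at 1 µg daily for 5 days from day 3 on, and the methods call the other group with leukemia vehicle treated where the sample labels give no treatment. The leukemia therefore came from 1 cell line, and the T-cells were those of the host.

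IL-12 is a cytokine of antigen-presenting cells that binds a receptor of the chains IL-12Rβ1 and IL-12Rβ2 on T-cells and NK cells. The receptor signals through the kinases JAK2 and TYK2 to the transcription factor STAT4, which together with T-bet, the product of Tbx21, drives transcription of Ifng. Interferon gamma acts through its own receptor on many cell types and raises antigen presentation genes, chemokines such as CXCL9 and guanylate-binding proteins.

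The panel was the Mouse Immune Exhaustion panel of the nCounter system, in which color-coded probes are hybridized to RNA molecules and counted without amplification. The total count per mouse was 257613 to 711748, lowest in mouse 3 of the vehicle group. A probe for a gene of a virus (LCMV), without a target in mouse RNA, had between 53 and 114 counts, and values near it can hold background. Values are given as normalized counts, the deposited counts scaled between mice by the TMM method. A gene was called differentially expressed where edgeR's quasi-likelihood test gave an adjusted p (Benjamini-Hochberg, 785 probes) under 0.05 and the change was at least 1.5-fold. Nothing in the labels ties a mouse of 1 group to a mouse of another. Fewer cells of a type and less RNA per cell cannot be told apart in these bulk samples.

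Of the 4 genes, Ifng was the one that was differentially expressed, and only in rIL-12 treated mice with leukemia relative to mice without leukemia, where it rose 2.62-fold. In that comparison 138 of all 785 probes (17.6%) were differentially expressed, 8.92% higher and 8.66% lower, so 1 of 4 is near the share of the panel. Between vehicle treated mice with leukemia and mice without leukemia the count was 0 of 4, beside 2.68% of all probes (1.27% higher and 1.40% lower). At an unadjusted p under 0.05 it was 2 of 4 with edgeR, and DESeq2 called 0. Between rIL-12 and vehicle treated mice it was also 0 of 4, beside 13.8% of all probes (8.54% higher and 5.22% lower), with 2 of 4 at an unadjusted p and 1 by DESeq2. Groups did not overlap in 1 of the 4 genes with vehicle relative to no leukemia (Il12rb1, higher), beside 22.5% of all probes (12.7% higher and 9.81% lower). With rIL-12 relative to no leukemia this was also 1 of 4 (Ifng, higher), beside 35.5% (18.9% higher and 16.7% lower). Between rIL-12 and vehicle it was 0 of 4, beside 30.7% (15.4% higher and 15.3% lower). The 3 comparisons share groups and are therefore not independent of each other.

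The promoter of Ifng is shown because Ifng was the gene of the set that rose. That of Gbp2, a guanylate-binding GTPase induced by interferon gamma, is shown because Gbp2 had the largest change among the interferon gamma response genes described further on. Each is the 250 bases before the transcription start from RefSeq on GRCm38.p6, written 5′ to 3′ on the strand of the gene. Ifng lies on the plus strand at chr10:118440796-118441045 and Gbp2 on the plus strand at chr3:142620413-142620662. Capitals mark matches on either strand to the letters TTCNNNGAA, a gamma-activated site as bound by STAT factors, or to the interferon-stimulated response element (ISRE), a pair of GAAA separated by any 2 bases.
Ifng: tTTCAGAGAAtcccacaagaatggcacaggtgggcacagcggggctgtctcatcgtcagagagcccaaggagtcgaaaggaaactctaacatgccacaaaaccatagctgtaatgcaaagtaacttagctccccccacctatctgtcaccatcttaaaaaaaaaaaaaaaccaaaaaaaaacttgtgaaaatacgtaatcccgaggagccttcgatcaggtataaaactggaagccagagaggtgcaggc
Gbp2: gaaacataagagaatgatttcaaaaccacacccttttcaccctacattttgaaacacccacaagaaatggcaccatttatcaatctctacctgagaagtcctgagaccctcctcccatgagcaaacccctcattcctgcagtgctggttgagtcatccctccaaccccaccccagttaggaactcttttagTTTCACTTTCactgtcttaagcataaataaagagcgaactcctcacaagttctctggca
The Ifng promoter held 1 match to TTCNNNGAA, at 249 to 241 bases before the start, and none to the ISRE. The Gbp2 promoter held 1 match to the ISRE on the opposite strand, at 59 to 50 bases before the start, and none to TTCNNNGAA. Among 32851 RefSeq promoters of the same length, 7.02% held TTCNNNGAA and 2.98% held the ISRE. The motif GTGTGA, the core of the T-box site that T-bet binds, was held by 12.3% of promoters and by neither of these on either strand. No capital stretch in these promoters belongs to more than 1 motif. Of the other members, Tbx21 and both listed promoters of Stat4 held no match to TTCNNNGAA or GTGTGA, and the ISRE was matched in 1 of the 2 promoters of Stat4 and not in that of Tbx21. For Il12rb1 the table of promoters has no entry. Among other interferon gamma response genes, the promoters of Cxcl9, H2-Aa, H2-Eb1 and Psmb9 matched neither TTCNNNGAA nor the ISRE. That of Socs1 held 2 matches to the ISRE and none to TTCNNNGAA. These matches are descriptions of the sequence and were not tested for binding.

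Il12rb1 encodes the β1 chain that the receptors of IL-12 and IL-23 share, and its probe lies on transcript NM_008353.2 of the gene on chromosome 8. In mice without leukemia it had 78.5, 85.0 and 72.5 normalized counts, with raw counts of 74 to 84 that lay under the viral probe of the same mouse in 2 of 3 mice. Vehicle treated mice with leukemia had 104, 251 and 137 normalized counts, each above every mouse without leukemia. rIL-12 treated mice had 70.2, 181 and 261, so that mouse 1 lay below all mice without leukemia, mouse 2 within the range of the vehicle group and mouse 3 above it. The means were 78.7 ± 6.24 (SD, n = 3) without leukemia, 164 ± 77.2 (SD, n = 3) with vehicle and 171 ± 95.7 (SD, n = 3) with rIL-12. The log2 fold change relative to mice without leukemia was 1.06 (standard error 0.41) with vehicle and 1.10 (standard error 0.41) with rIL-12. By edgeR the adjusted p was 0.223 with vehicle and 0.0740 with rIL-12, and so neither passed. The vehicle group did not overlap with mice without leukemia (p = 0.1 by the exact permutation test, two-sided, below which 3 mice a group cannot go). The rIL-12 treated group overlapped (p = 0.4 by the same exact test). Without rIL-12 mouse 1 the difference with rIL-12 was 1.48 and passed (adjusted p = 0.00413), as it did with DESeq2 (1.10), and that with vehicle passed in a model of only the 2 groups (1.06).

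Set directly against vehicle treated mice, Il12rb1 in rIL-12 treated mice had a log2 fold change of 0.04, with a 95% interval of -0.81 to 0.89. The interval spans differences of almost 2-fold in both directions, so for this gene a change of that size is not excluded with 3 mice a group. Genes of the IL-12 family were sparse in the panel, with 4 of 10 listed genes matched. Il27ra, which encodes a chain of the IL-27 receptor, fell by 0.70 on the log2 scale with rIL-12 relative to mice without leukemia (standard error 0.16, adjusted p = 0.00768), but did not pass without no-leukemia mouse 3 (-0.60). Relative to vehicle its adjusted p was 0.0412 at a log2 fold change of -0.54, less than 1.5-fold. Il12a, Il12b and Il18, which encode ligands, passed in no comparison, and with vehicle none of the 4 did, at an unadjusted p or with DESeq2 either. Il12b (20 to 32 counts) and Il18 (32 to 76) lay under the viral probe in each group, which limits what can be detected for them. The median log2 fold change of the 4 genes was -0.26 with rIL-12 relative to no leukemia, beside 0.02 for all probes.

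Stat4 encodes the factor that the IL-12 receptor activates, and its probe lies on transcript NM_011487.4 of the gene on chromosome 1. It had 169, 110 and 188 normalized counts without leukemia, 104, 86.8 and 117 with vehicle, and 119, 131 and 93.1 with rIL-12. Mice without leukemia held the 2 highest values, and mouse 2 of that group lay inside the range of both other groups. The means were 156 ± 40.7 (SD, n = 3), 103 ± 15.1 (SD, n = 3) and 114 ± 19.1 (SD, n = 3). The log2 fold change was -0.61 (standard error 0.23, adjusted p = 0.208) with vehicle and -0.44 (standard error 0.22, adjusted p = 0.189) with rIL-12, each relative to no leukemia. Between rIL-12 and vehicle it was 0.17 (95% interval -0.33 to 0.66, adjusted p = 0.652). Raw counts with vehicle were 70 to 103, in the range of the viral probe. Housekeeping scaling took the difference with rIL-12 relative to no leukemia past the threshold (-0.76, adjusted p = 0.0353), in place of Ifng.

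The receptor kinases moved in unlike ways with rIL-12. Jak2 had 829, 662 and 867 normalized counts without leukemia, 735, 632 and 623 with vehicle, and 1276, 1661 and 966 with rIL-12. All 3 rIL-12 treated mice lay above the other 6. Jak2 rose by a log2 fold change of 0.73 (standard error 0.20, adjusted p = 0.0213) relative to no leukemia and 0.97 (standard error 0.20, adjusted p = 0.0137) relative to vehicle. Tyk2 fell by 0.75 on the log2 scale relative to vehicle (standard error 0.22, adjusted p = 0.0411) and had log2 fold changes of -0.34 (adjusted p = 0.316) with rIL-12 and 0.41 (adjusted p = 0.424) with vehicle relative to no leukemia. The call of Tyk2 held without no-leukemia mouse 2 or rIL-12 mouse 3 and was lost without any other mouse (-0.88 to -0.59). It was also lost under T-cell receptor gene scaling (-0.055), with the replicate block (-0.73) and in a model of only the 2 groups (-0.69). That of Jak2 relative to no leukemia was lost without no-leukemia mouse 1 (0.79) or 2 (0.62) or rIL-12 mouse 2 (0.51), and relative to vehicle without vehicle mouse 2 (0.90) or 3 (0.93) or rIL-12 mouse 2 (0.76). Scaling by housekeeping genes took Jak2 relative to no leukemia to 0.40 and relative to vehicle to 0.53, neither past both thresholds, and total count scaling took the former to 0.54, which did not pass.

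Of the 10 genes of JAK-STAT signalling and its inhibitors, 3 rose and 0 fell with rIL-12 relative to no leukemia, Jak2 and Stat3 among them, beside 8.92% of all probes higher. Relative to vehicle 3 rose, again with Jak2 and Stat3, and Tyk2 fell, beside 8.54% of all probes higher and 5.22% lower. With vehicle relative to no leukemia none of the 10 passed with edgeR, 1 did at an unadjusted p under 0.05, and DESeq2 called 1. Stat3, which carries the signals of IL-6 and related cytokines, rose by 0.89 relative to no leukemia (standard error 0.19, adjusted p = 0.00629), and was under 1.5-fold with housekeeping scaling (0.58). Relative to vehicle it rose by 0.89 (adjusted p = 0.0151), a call lost with housekeeping scaling (0.47) and without vehicle mouse 2 (0.87), vehicle mouse 3 (0.83) or rIL-12 mouse 2 (0.70). Socs1, an inhibitor of JAK kinases that interferon gamma induces, had 19 to 49 counts in the 9 mice, less than the viral probe gave in any, with log2 fold changes of 0.19, 0.23 and 0.04 in the 3 comparisons (adjusted p = 0.868, 0.679 and 0.950).

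Tbx21 encodes T-bet, the factor that directs T-cells to the type 1 fate, and its probe lies on transcript NM_019507.2 of the gene on chromosome 11. It had 65.8, 61.7 and 86.0 normalized counts without leukemia, 82.8, 152 and 88.6 with vehicle, and 44.2, 60.4 and 84.8 with rIL-12. Mouse 2 of the vehicle group stood above the other 8 mice, whose values overlapped between groups. The means were 71.2 ± 13.0 (SD, n = 3), 108 ± 38.6 (SD, n = 3) and 63.1 ± 20.5 (SD, n = 3). Raw counts exceeded the viral probe of the same mouse in mouse 1 without leukemia and mouse 2 with vehicle, so that background can be part of nearly every value. The log2 fold change was 0.61 (standard error 0.28, adjusted p = 0.336) with vehicle and -0.18 (standard error 0.29, adjusted p = 0.737) with rIL-12 relative to no leukemia. In rIL-12 relative to vehicle treated mice it was -0.79 (standard error 0.28, adjusted p = 0.0722), which did not pass the threshold. It passed with housekeeping scaling (-1.17), total count scaling (-0.95) and when rIL-12 mouse 3 was left out (-1.04).

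Ifng encodes interferon gamma, and its probe lies on transcript NM_008337.3 of the gene on chromosome 10. It had 93.4, 138 and 127 normalized counts without leukemia and 132, 175 and 159 with vehicle. With rIL-12 it had 149, 488 and 304. Mice 2 and 3 of the rIL-12 treated group stood above all other mice, and mouse 1 of that group lay within the range of the vehicle group. The means were 119 ± 23.0 (SD, n = 3) without leukemia, 155 ± 21.4 (SD, n = 3) with vehicle and 314 ± 170 (SD, n = 3) with rIL-12. Raw counts lay above the viral probe of the same mouse in all 9 mice, by 1.19-fold to 5.77-fold.

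Relative to mice without leukemia, Ifng in rIL-12 treated mice rose by a log2 fold change of 1.39 (standard error 0.33, adjusted p = 0.0113 by edgeR). The groups did not overlap (p = 0.1, exact permutation over mice). With vehicle the log2 fold change was 0.38 (standard error 0.34, adjusted p = 0.692), with a 95% interval of -0.36 to 1.11. In rIL-12 relative to vehicle treated mice it was 1.01 (standard error 0.33, adjusted p = 0.0557), just short of the threshold, and the groups overlapped (p = 0.3, exact permutation over mice). The call relative to no leukemia was lost without no-leukemia mouse 1 (1.27), without rIL-12 mouse 2 (0.92), under housekeeping scaling (1.07) and with the methods' t-test (1.26). The difference from vehicle passed without rIL-12 mouse 1 (1.35) or 3 (1.04) and, among other settings, with DESeq2 (1.05), while it was 0.54 without rIL-12 mouse 2.

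**Figure D1:**
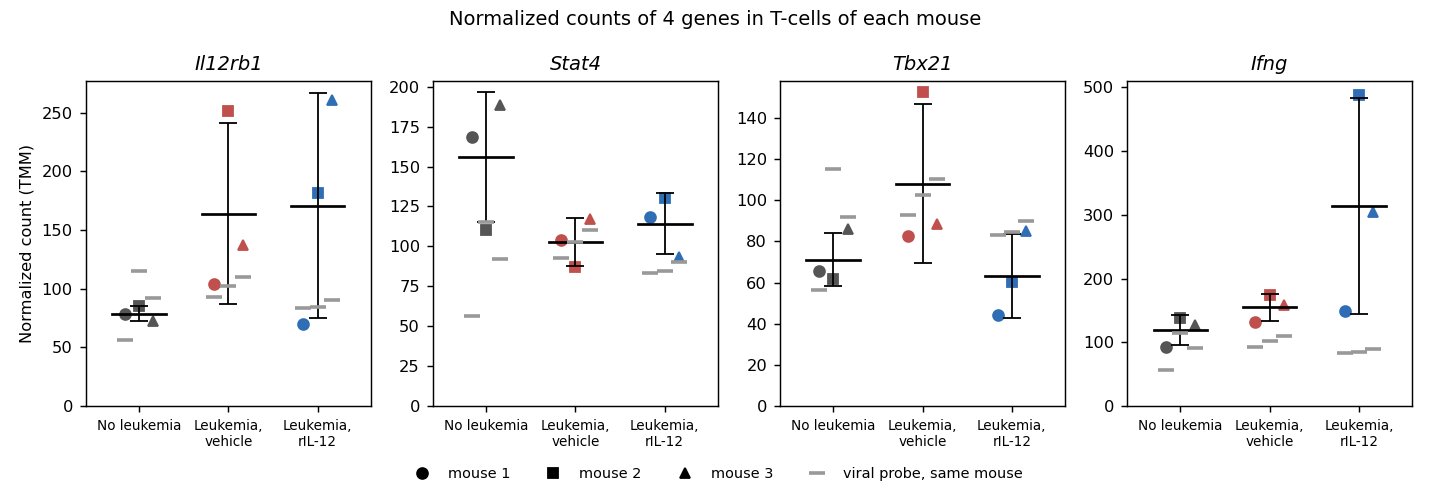
Normalized counts (y axes, linear and starting at 0, each with its own scale) of Il12rb1, Stat4, Tbx21 and Ifng in each mouse of the 3 groups, with lines and bars for the mean ± SD (n = 3) and grey dashes for the viral probe of the same mouse. Ifng reaches 488 and 304 in mice 2 and 3 of the rIL-12 treated group, while most values of Tbx21 lie under the viral probe.

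**Figure D2:**
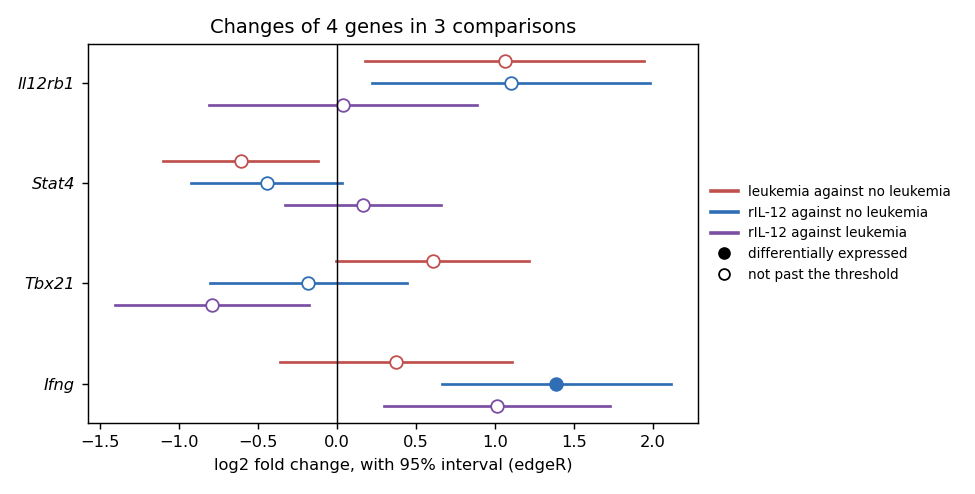
Log2 fold change (x axis) of the 4 genes in the 3 comparisons from edgeR, with 95% intervals that are not adjusted for the number of genes. Filled points are differentially expressed, which holds for Ifng in rIL-12 treated mice relative to mice without leukemia (1.39).

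The isolates themselves differed in cell type markers. The 7 matched T-cell genes summed to 4389 to 7321 normalized counts without leukemia, 2964 to 4044 with vehicle and 1483 to 2857 with rIL-12, lowest in mouse 1 of the rIL-12 treated group. All 7 were lower past the threshold with rIL-12 relative to no leukemia, at a median of -1.47 on the log2 scale. The 7 matched NK cell genes, which belong to the other main source of Ifng, summed to 2796 to 3294, 2309 to 3305 and 2704 to 4055, with 1 gene higher and 2 lower past the threshold with rIL-12. Nkg7, with means of 1857, 1928 and 2371, made up most of these sums. Ncr1 had 22 to 46 counts, under the viral probe. The 6 matched myeloid genes summed to 2110 to 2138, 2400 to 2690 and 2223 to 3009. Cd8a and Cd8b1 summed to 1354 to 2629, 221 to 950 and 198 to 320, and Cd4 had 107 to 208, 201 to 369 and 84.9 to 201. The 5 matched B-cell and B-ALL genes summed to 478 to 623, 572 to 806 and 578 to 607, and the 2 matched mast cell genes to 751 to 833, 1450 to 1753 and 1461 to 1882. The 9 matched housekeeping genes had a median log2 fold change of 0.39 with rIL-12 and -0.22 with vehicle relative to no leukemia. Between rIL-12 and vehicle their median was 0.56, and 4 of the 9 were higher past the threshold, beside 8.54% of all probes. No probe of the panel was at 0 in any mouse (lowest count 5 to 16), so a count above 0 does not show a cell type. The part of these cell types in the values of Ifng and the other genes was not tested.

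Scaled by Cd3d, Cd3e and Cd3g, which encode chains of the T-cell receptor complex, Ifng had a log2 fold change of 2.77 with rIL-12 relative to no leukemia. All probes then shifted by a median of 1.53, and 712 of 785 probes passed, among them all 4 genes of the set, so that these calls are not particular to them. Relative to that median, Il12rb1 (2.44) and Ifng lay above and Stat4 (1.17) and Tbx21 (1.27) below. Under the same scaling Ifng was 1.61 in rIL-12 relative to vehicle treated mice, beside a median of 0.60 for all probes.

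**Figure D3:**
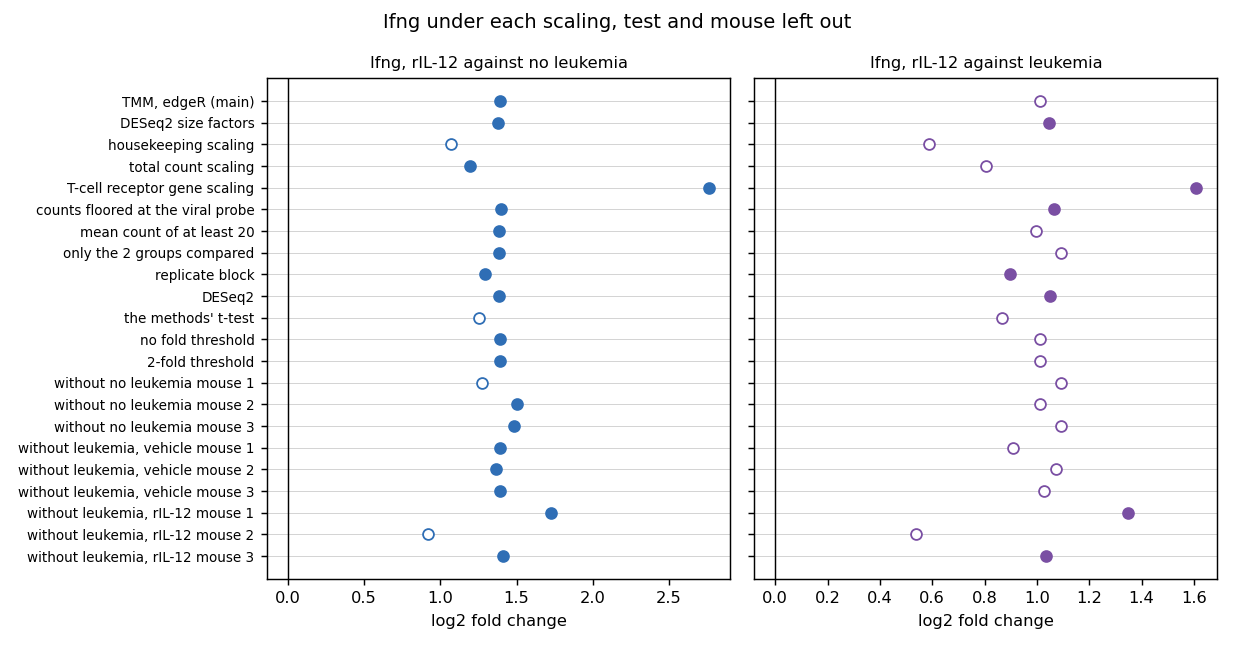
Log2 fold change of Ifng (x axes) in rIL-12 treated mice relative to mice without leukemia (left) and to vehicle treated mice (right) under each scaling, test and threshold and with each mouse left out. Filled points passed the threshold, and all values lie above 0, from 0.92 to 2.77 on the left and from 0.54 to 1.61 on the right.

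Of 25 listed genes of the interferon gamma response, 16 were matched to probes. With rIL-12 relative to no leukemia 8 of the 16 rose and none fell, beside 8.92% of all probes higher, and the median log2 fold change was 0.93 against 0.02 for all probes. With vehicle none of the 16 passed with edgeR, 2 did at an unadjusted p under 0.05 and DESeq2 called 0, with a median of 0.32 against 0.05 for all probes. Relative to vehicle, 6 of the 16 rose with rIL-12, beside 8.54% of all probes higher. That count was 0 without vehicle mouse 2, vehicle mouse 3 or rIL-12 mouse 2, whereas the 8 were 6 to 9 with any 1 mouse left out. With each mouse left out, all probes called higher numbered 0 to 111 relative to vehicle and 19 to 109 relative to no leukemia. After adjustment the methods' t-test called 0 of the 16 and 0 of all probes in each of the 3 comparisons. It was run here on TMM-scaled values, not on the nSolver values of the study.

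Gbp2 had 163, 127 and 133 normalized counts without leukemia, 229, 703 and 232 with vehicle, and 488, 6126 and 3056 with rIL-12. Its log2 fold change with rIL-12 was 4.50 relative to no leukemia (standard error 0.73, adjusted p = 0.00102). Mice 2 and 3 of the rIL-12 treated group, which had the highest Ifng, also had the highest Gbp2, and mouse 2 led the vehicle group in both genes. Cxcl9, a chemokine that draws T-cells through CXCR3, rose by 2.66 relative to no leukemia (standard error 0.45, adjusted p = 0.00142). With rIL-12 it had 426, 1374 and 362 normalized counts, so that here mouse 3 was lowest. In the same comparison the class II genes H2-Aa, H2-Ab1 and H2-Eb1 rose by 2.68, 2.67 and 2.08. Their transactivator Ciita rose by 1.10 and the immunoproteasome gene Psmb9 by 1.14. H2-Eb1 had 41 to 56 counts without leukemia, where the viral probe had 53 to 114. Its difference ranged from 1.28 to 3.61 over the other settings. Ciita, with counts near or under the viral probe, was 0.08 with counts raised to that probe and lost its call without any no-leukemia mouse or rIL-12 mouse 2, and Psmb9 without no-leukemia mouse 1 (1.11). Housekeeping scaling ended the calls of Ciita (0.79) and Psmb9 (0.86), and total count scaling that of Ciita (0.92). H2-Aa had 1622, 3085 and 625 normalized counts with rIL-12, again lowest in mouse 3. Relative to vehicle, rIL-12 treated mice had log2 fold changes of 3.04 for Gbp2, 2.03 for Cxcl9 and 1.18 for H2-Eb1. These passed the threshold, but not in a model of only the 2 groups (3.12, 2.12 and 1.26). H2-Aa (2.03) and H2-Ab1 (1.97) also passed relative to vehicle, while Ciita (0.81) and Psmb9 (0.61) did not.

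The order of the rIL-12 treated mice in Ifng, mouse 2 above 3 above 1, was shared by 4 of the 16 response genes and 3 of the 8 that rose, beside 10.7% of all probes. Fcgr1, a gene of the myeloid list that interferon gamma also induces, had 256, 534 and 268 normalized counts with rIL-12 and rose by a log2 fold change of 1.11 relative to no leukemia (adjusted p = 0.0157). The part of myeloid or B-cell RNA in the class II values was not tested.

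**Figure D4:**
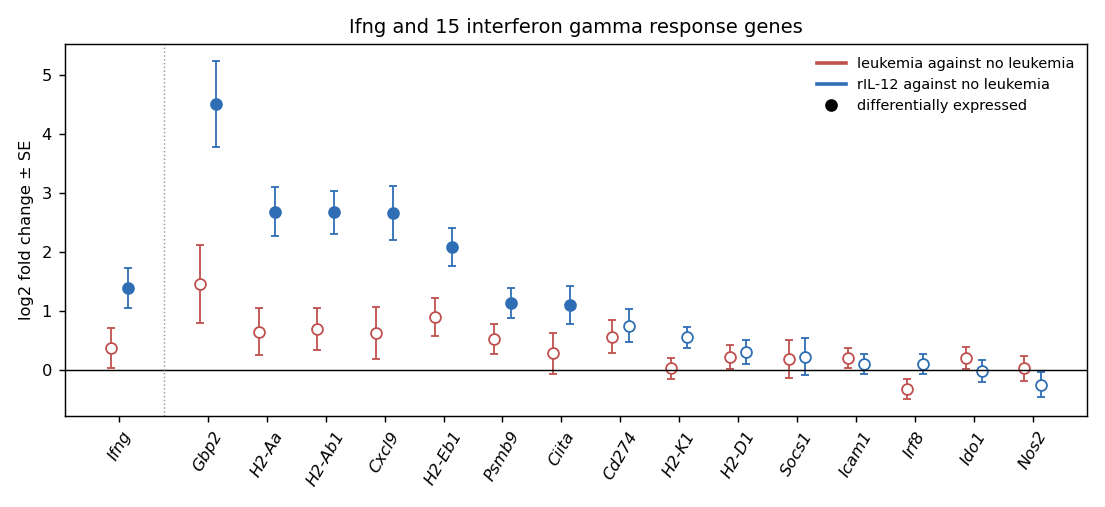
Log2 fold change ± standard error (y axis) of Ifng and 15 of the 16 matched interferon gamma response genes relative to mice without leukemia, with vehicle (red) and with rIL-12 (blue). Filled points are differentially expressed, 7 of the 15 response genes drawn with rIL-12 and none with vehicle.

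Of 14 listed type 1 effector genes of T-cells and NK cells, 12 were matched. With rIL-12 relative to no leukemia 1 rose and 2 fell, beside 8.92% of all probes higher and 8.66% lower, and the median of the 12 was 0.05 on the log2 scale. Eomes, which encodes a T-box factor related to T-bet, fell by 1.12 on the log2 scale (standard error 0.24, adjusted p = 0.00629), and Prf1, which encodes perforin, fell by 0.90 (standard error 0.19, adjusted p = 0.00508). Eomes had 36.4 to 53.2 normalized counts with rIL-12, under the viral probe, and with counts raised to that probe its difference was -0.36 and did not pass, nor did it without no-leukemia mouse 3 (-0.86). Gzmb, which encodes granzyme B, fell by 0.84 relative to vehicle (standard error 0.22, adjusted p = 0.0259), with 83.8, 137 and 91.9 normalized counts with vehicle and 59.8, 55.6 and 59.0 with rIL-12, under the viral probe in each rIL-12 treated mouse. With counts raised to that probe it was -0.34, with T-cell receptor gene scaling -0.13 and in a model of only the 2 groups -0.77, none past the threshold, and the call was lost without any mouse but no-leukemia mouse 2, vehicle mouse 1 and rIL-12 mouse 3. Without leukemia Gzmb had 44.5 to 62.6 normalized counts. By edgeR its log2 fold change relative to those mice was 0.91 with vehicle (adjusted p = 0.0501) and 0.073 with rIL-12 (adjusted p = 0.869). Neither passed the threshold.

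Cxcr3, a receptor of type 1 T-cells that T-bet induces, had log2 fold changes of 0.22 with vehicle (95% interval -0.13 to 0.56), -0.0040 with rIL-12 and -0.22 between rIL-12 and vehicle (adjusted p = 0.628, 0.987 and 0.365). With vehicle relative to no leukemia none of the 12 effector genes passed with edgeR, 7 did at an unadjusted p under 0.05 and DESeq2 called 2. Of the factors of other T-helper fates, 4 of 5 genes were matched. Foxp3, which marks regulatory T-cells, fell by 1.45 on the log2 scale with rIL-12 relative to no leukemia (standard error 0.34, adjusted p = 0.00932), from 163 to 186 normalized counts to 39.8, 45.9 and 103. Relative to vehicle it fell by 1.36 (adjusted p = 0.0213). With T-cell receptor gene scaling Foxp3 was -0.074 relative to no leukemia and -0.85 relative to vehicle, neither past the threshold, and in a model of only rIL-12 and vehicle it was -1.31 and did not pass. Without rIL-12 mouse 2 the differences were -1.26 and -1.18 and did not pass, the latter also not without vehicle mouse 2 or 3 or rIL-12 mouse 1. Gata3 and Bcl6 passed in no comparison.

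For each of the 4 genes, the probes with the most similar log2 values over the 9 mice were found among those above the mean of the viral probe. Gbp2 (Pearson r = 0.94) and Fcgr1 (0.93) were among the 3 closest to Ifng. The 3 closest to Il12rb1 were Cd274 (0.97), which encodes the ligand PD-L1, Oas2 (0.94), an interferon-induced antiviral enzyme, and Ldha (0.91), a lactate dehydrogenase. Cxcr3 (0.95) and the kinase gene Jak3 (0.87) were among the 3 closest to Tbx21, and those of Stat4 were Sesn1 (0.93), Pecam1 (0.86) and Il16 (0.86). After each group's mean was taken out, the correlation was 0.86 for Gbp2 and 0.83 for Fcgr1 with Ifng, and 0.97, 0.97 and 0.87 for the genes next to Il12rb1. The 9 points share the groups and the scaling, and the closest of 514 or 515 probes are high by selection, so these values are descriptions. Among the 4 genes themselves, r was 0.70 for Il12rb1 and Ifng, 0.60 for Il12rb1 and Tbx21, -0.67 for Il12rb1 and Stat4 and -0.02 for Tbx21 and Ifng, each over 9 mice.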

How the data were processed

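T-cells from the bone marrow of 9 mice were measured on the nCounter Mouse Immune Exhaustion panel, and the authors deposited raw counts per probe and mouse for 785 probes. The nSolver normalization named in the methods is not in these values. Control probes of the assay were not used here. Probes were matched to symbols through the RefSeq transcript name without its version (GRCm38.p6), for 751 probes and not for 34.

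After TMM scaling, edgeR 4.0.16 (R 4.3.3) fitted a quasi-likelihood model, all 3 groups in 1 model, no filter and a prior count of 1. P-values were adjusted over all 785 probes, and single genes were also compared with exact permutation tests over mice. The fit was tested on simulated data. Replicates are separate mice per the methods. They differed by more than counting error (chi-square per degree of freedom 5.54 to 60.0), and counts carry no amplification. The genes, lists and tests were chosen with earlier results of these data known. The rule named all members, fixed lists of pathway genes and, for each member, the 3 most similar probes. Some genes that the rule names are not reported here, though counts over lists include them. Markers of T-cells with their CD8 and CD4 subsets, NK, B-, myeloid and mast cells and housekeeping genes were listed too.

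Alternatives were DESeq2 (1.42.0) and its size factors, scaling by 9 housekeeping genes, total count or Cd3d, Cd3e and Cd3g, counts raised to the viral probe, a mean count of at least 20, only 2 groups, a replicate block, the methods' t-test, no or a 2-fold threshold, and each mouse left out. The methods name a t-test for 2 groups and ANOVA with Tukey's test for more. Here the t-test was pairwise with equal variances, on log2 TMM values with Benjamini-Hochberg adjustment. It is therefore not the study's own procedure, which was not run.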

Additional observations from a re-analysis of the deposited data

How the results depend on the processing

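The number of the 4 genes past the threshold, 0 with vehicle and 1 with rIL-12 relative to no leukemia and 0 between rIL-12 and vehicle, depended on the processing. With vehicle it was 3 under scaling by T-cell receptor genes and 1 in a model of only the 2 groups. With rIL-12 relative to no leukemia it was 4 under T-cell receptor gene scaling, 0 with the methods' t-test and 2 with DESeq2. Between rIL-12 and vehicle it was 1, with Ifng higher, under DESeq2 size factors, T-cell receptor gene scaling and counts raised to the viral probe. The same held with the replicate block and with DESeq2. Housekeeping and total count scaling also gave 1, but this was Tbx21, which was lower, and not Ifng. With each mouse left out the number stayed at 0 with vehicle relative to no leukemia. It ranged from 0 to 2 in each of the comparisons with rIL-12.

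Directions changed as follows. Under housekeeping scaling, Socs1 was -0.070 with rIL-12 relative to no leukemia and, relative to vehicle, Il12rb1 was -0.33, Stat4 -0.27 and Socs1 -0.38, while all probes shifted to a median of -0.28 and -0.50. Under total count scaling, relative to vehicle, Il12rb1 was -0.13, Stat4 -0.041 and Socs1 -0.15, beside a median of -0.28. Under T-cell receptor gene scaling, where the median of all probes was 0.86, 1.53 and 0.60 in the 3 comparisons, Stat4 was 0.29 and Jak2 0.60 with vehicle. There, with rIL-12 relative to no leukemia, Stat4 was 1.17, Tbx21 1.27, Tyk2 1.12, Eomes 0.40, Cxcr3 1.49, Il27ra 0.83 and Prf1 0.65, and relative to vehicle Eomes was 0.46 and Cxcr3 0.45. With counts raised to the viral probe, Socs1 was -0.022 relative to no leukemia and -0.18 relative to vehicle. Il12rb1 relative to vehicle was -0.0021 with the replicate block and -0.037 with the methods' t-test. With each mouse left out, Il12rb1 relative to vehicle ranged from -0.39 to 0.47, Tbx21 with rIL-12 relative to no leukemia from -0.44 to 0.019, Cxcr3 in that comparison from -0.088 to 0.11 and Socs1 relative to vehicle from -0.22 to 0.24.

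All probes past the threshold numbered 21, 138 and 108 in the 3 comparisons. They numbered 3, 118 and 238 under housekeeping scaling, 156, 712 and 189 under T-cell receptor gene scaling and 0, 0 and 0 with the methods' t-test. In a model of only 2 groups they numbered 63 with vehicle relative to no leukemia and 27 between rIL-12 and vehicle, with DESeq2 50 with vehicle, and at 2-fold 72 and 49 with rIL-12 relative to no leukemia and to vehicle. With each mouse left out they numbered 0 to 42, 66 to 194 and 0 to 199. Whether replicate numbers pair the mice cannot be told from 9 mice. Deviations correlated over 0.1 in 5 of 9 same-number pairs (-0.19 to 0.33). Pairs of unlike number ranged from -0.40 to 0.23, and 3 of 9 mice correlated best with their own number. With the replicate block Ifng was 1.29 relative to no leukemia and 0.90 relative to vehicle, the latter past the threshold. Counts of Tbx21, Socs1 and Eomes near the viral probe limit what can be detected for them, and the causes of these changes were not tested.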
